A study of Mus musculus with 407 samples.

Results

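Genes that respond to glucocorticoids were followed in mouse skeletal muscle, as 8 genes chosen by name out of 24458 gene symbols: Nr3c1, Fkbp5, Tsc22d3, Klf15, Klf9, Zbtb16, Sgk1 and Ddit4. All 8 stood on a single line of each count table and passed the filter on low counts in every muscle and sex. The libraries came from the diaphragm, the gastrocnemius, the soleus and the tibialis anterior of male and female C57BL/6J mice, an inbred strain, aged 6 months, the youngest, or 12, 18, 21, 24 or 27. Each library was made from 1 muscle, with 6 to 10 libraries for each muscle, sex and age and 407 in all. The mice were bought, housed together in cages and killed with CO2. Every muscle of an age group was taken on 1 day between the morning and early afternoon, so that age and the day of collection cannot be told apart. Whether males and females of an age were taken on the same day is not stated. Changes with age that differ between the sexes therefore cannot be told apart from the day of collection either. Which muscles belong to 1 mouse is not given by the labels.

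Glucocorticoids are steroid hormones of the adrenal cortex, released with a daily rhythm and in stress, and corticosterone is the main one in mice. They bind the glucocorticoid receptor, encoded by Nr3c1, which is held in the cytoplasm by heat shock chaperones, enters the nucleus once bound and attaches to DNA at a palindromic glucocorticoid response element. In skeletal muscle the hormone is known for raising protein breakdown and amino acid release and for lowering protein synthesis. The remaining 7 genes are among those the receptor induces in many tissues: Fkbp5 encodes a co-chaperone that lowers the receptor's affinity for hormone, Tsc22d3 the anti-inflammatory leucine zipper protein GILZ, Klf15 and Klf9 transcription factors of the Kruppel-like family, Zbtb16 the zinc finger protein PLZF, Sgk1 a kinase that regulates ion transport, and Ddit4 the mTOR inhibitor REDD1.

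The stretches of DNA before the start of 6 of these genes were available from RefSeq (assembly GRCm38.p6), in 13 windows of 250 bases that end just before an annotated start. Shown is 1 window for each of 4 genes that holds the letters of the response element, of 1 of its arms, or of the E-box that clock proteins bind, with those letters in capitals. Each is written 5′ to 3′ on the strand of the gene.
Sgk1, chr10:21993640-21993889, plus strand: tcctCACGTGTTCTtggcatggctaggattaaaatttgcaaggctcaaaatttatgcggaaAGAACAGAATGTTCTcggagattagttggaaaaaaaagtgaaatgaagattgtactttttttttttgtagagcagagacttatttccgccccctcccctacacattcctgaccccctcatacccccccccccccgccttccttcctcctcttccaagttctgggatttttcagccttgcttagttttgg
Tsc22d3, chrX:140600523-140600772, minus strand: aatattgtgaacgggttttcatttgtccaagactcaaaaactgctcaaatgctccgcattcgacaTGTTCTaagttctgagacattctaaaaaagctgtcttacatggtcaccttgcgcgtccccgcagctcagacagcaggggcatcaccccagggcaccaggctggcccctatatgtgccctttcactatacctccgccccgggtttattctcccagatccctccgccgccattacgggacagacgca
Klf15, chr6:90462326-90462575, plus strand: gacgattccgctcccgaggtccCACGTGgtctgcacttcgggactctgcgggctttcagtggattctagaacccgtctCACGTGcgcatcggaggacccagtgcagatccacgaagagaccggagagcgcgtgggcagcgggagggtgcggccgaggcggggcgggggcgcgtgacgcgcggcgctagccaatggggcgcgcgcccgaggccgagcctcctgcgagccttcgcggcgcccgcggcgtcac
Fkbp5, chr17:28486150-28486399, minus strand: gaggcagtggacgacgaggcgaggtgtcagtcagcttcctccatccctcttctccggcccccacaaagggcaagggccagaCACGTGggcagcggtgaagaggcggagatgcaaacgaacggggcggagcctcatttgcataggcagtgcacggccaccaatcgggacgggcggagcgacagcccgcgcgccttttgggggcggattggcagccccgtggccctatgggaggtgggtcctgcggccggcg

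The Sgk1 window holds a complete element, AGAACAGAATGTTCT, 189 bases before the start. The motif searched on both strands was AGAACA and TGTTCT separated by any 3 bases, which 3 of 32851 promoter windows of the same length contain (0.00913%). A looser form, GNACA and TGTNC separated by any 3 bases, is found in 127 windows (0.387%), and a single arm, AGAACA or TGTTCT, in 5284 (16.1%). The Tsc22d3 window holds an arm 185 bases before the start, and of the other windows of Sgk1, which are not shown, 2 hold an arm, 195 and 13 bases before their starts. The E-box CACGTG, present in 1978 windows (6.02%), occurs 228 and 172 bases before the start of Klf15, 169 bases before that of Fkbp5 and 246 bases before that of Sgk1, where it overlaps an arm at 242. The windows of Klf9 and Ddit4 hold none of these letters. A match describes the letters of the window and not a site of binding. In GRCm38.p6, Klf15 lies on chromosome 6 from 90461043 to 90491803, Zbtb16 on chromosome 9 from 48651797 to 48836225, Sgk1 and Ddit4 on chromosome 10 from 21882184 to 21999903 and from 59949675 to 59951770, Fkbp5 on chromosome 17 from 28398753 to 28486149, Klf9 on chromosome 19 from 23141226 to 23168129 and Tsc22d3 on chromosome X from 140539528 to 140600522.

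Levels are CPM, the count of a gene per 1000000 counts of its library, after scaling by trimmed means of M values (TMM). They carry no correction for gene length, and are therefore compared between muscles, sexes and ages but not between genes. Library totals ranged from 38583802 to 300089909 counts (median 72766895), and the lowest member count in any library was 24, of Ddit4. The fibre markers followed the muscle labels: the median of Myh4, the fast myosin, was 40211 CPM in the gastrocnemius and 32581 in the tibialis anterior, against 107 in the soleus, where Myh7, the slow myosin, was at 6176 CPM. In 7 libraries the tissue makeup stood apart, with low muscle markers in 5 diaphragm libraries or with liver markers summing to more than 1000 CPM in 3. In those 5 diaphragm libraries Klf15 was at 1.87 to 5.06 CPM, below most of its muscle, and Nr3c1 at 204 to 301 CPM. Without these 7 libraries 20 of the 21 member calls against 6 months remained, Ddit4 in the male diaphragm at 21 months was lost and Fkbp5 in the male diaphragm at 27 months was gained. In whole muscle, fewer cells of a type and less RNA per cell cannot be told apart.

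Tsc22d3 and Sgk1 separated the fast limb muscles from the soleus and the diaphragm, and Fkbp5 did so by a smaller margin. Klf9 was lowest in the diaphragm, with the soleus between it and the fast limb muscles, and Nr3c1 and Klf15 were close to even. Of 96 tests of a member between muscles (8 genes, 6 pairs of muscles, each sex), 73 passed an adjusted p of 0.05 in edgeR's quasi-likelihood test, against 77.0% over all genes tested. The tibialis anterior and soleus differed for all 16 (8 genes in 2 sexes), the tibialis anterior and gastrocnemius for 6 of 16.

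**Figure D1:**
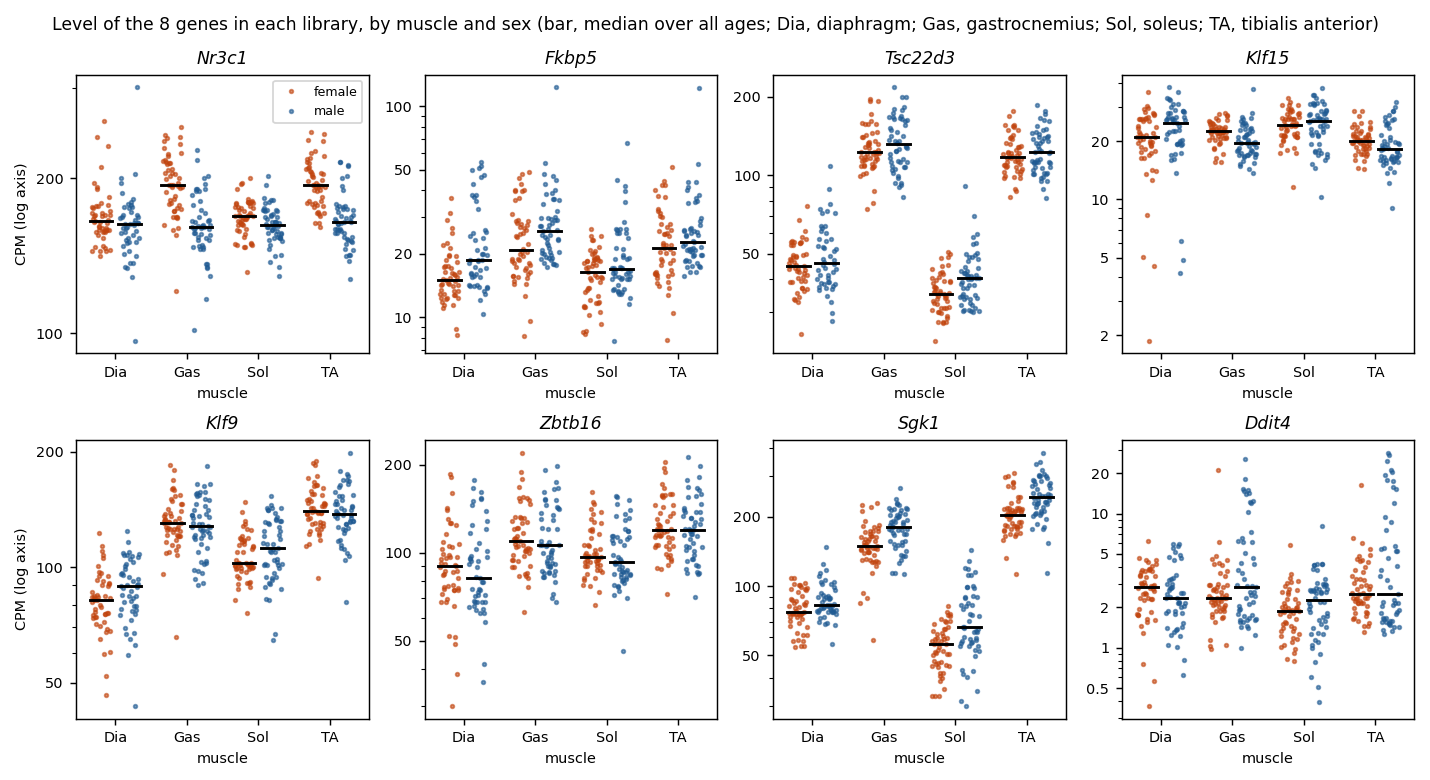
Level of each of the 8 genes in every library, in CPM on a log axis, by muscle and sex, with a bar at the median over the ages. Tsc22d3 and Sgk1 lie higher in the gastrocnemius and tibialis anterior than in the diaphragm and soleus, and Ddit4 spreads most within a muscle.

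The median level of Tsc22d3 was 122 CPM in female and 131 CPM in male gastrocnemius and 117 and 123 CPM in the tibialis anterior, against 44.9 and 46.1 CPM in the diaphragm and 35.2 and 40.3 CPM in the soleus. The soleus was lower than the gastrocnemius by a log2 fold change of -1.82 in females and -1.71 in males, and the diaphragm by -1.47 and -1.52. Sgk1 was highest in the tibialis anterior, with medians of 204 CPM in females and 245 in males, followed by the gastrocnemius (149 and 181), the diaphragm (77.0 and 82.5) and the soleus (55.7 and 66.1). All neighbours in that order differed in the test in both sexes. Klf9 had its lowest medians in the diaphragm (82.1 and 89.3 CPM) and its highest in the tibialis anterior (140 and 138 CPM), a log2 difference from the gastrocnemius of -0.68 and -0.65 for the diaphragm.

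Fkbp5 was lower in the diaphragm and soleus than in the gastrocnemius by 0.39 to 0.57 on the log2 scale, and did not pass the test between the gastrocnemius and the tibialis anterior (-0.04 in females, -0.06 in males). Its medians ran from 15.1 CPM in the female diaphragm to 25.8 CPM in the male gastrocnemius. Zbtb16 had medians of 82.3 CPM (male diaphragm) to 120 CPM (female tibialis anterior). Ddit4 had medians of 1.87 to 2.85 CPM in every muscle and sex, and in males its fitted mean was lower in the soleus and diaphragm than in the gastrocnemius by log2 differences of -1.05 and -1.03. Klf15, a regulator of amino acid breakdown, ranged between medians of 18.2 and 25.3 CPM, and Nr3c1 between 161 and 194 CPM. In females Nr3c1 was lower in the diaphragm (-0.20) and the soleus (-0.21) than in the gastrocnemius, while its male differences of -0.09 (diaphragm) and 0.09 (tibialis anterior) were small. That of the diaphragm had the other sign with RLE scaling (0.088, adjusted p 0.023, past the threshold), without the filter (0.067, 0.096) and without the libraries whose tissue makeup stood apart (0.024, 0.50), so that no direction can be given.

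Between the sexes, with all ages of a muscle in 1 fit, 12 of 32 tests passed (37.5%), against 37.8% of all tests. Females were higher in 3 and lower in 9. The shares of all genes that passed were 18.1% for diaphragm, 57.1% for gastrocnemius, 29.8% for soleus and 47.9% for tibialis anterior. Nr3c1 was higher in females in the gastrocnemius (log2 difference of females minus males 0.27, standard error 0.035, adjusted p 3.4e-11) and the tibialis anterior (0.23, 0.029, 4.3e-11), where the medians were 194 CPM against 161 and 194 against 164. Klf15 was higher in the female gastrocnemius (0.16, adjusted p 3.0e-03). Fkbp5 was lower in females in the diaphragm (-0.54, standard error 0.11, adjusted p 1.0e-04), the soleus (-0.29, 7.7e-03) and the gastrocnemius (-0.26, 0.045), and had a difference of -0.20 in the tibialis anterior (0.14).

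Sgk1 was lower in females in the soleus (-0.40, standard error 0.087, adjusted p 1.5e-04), the tibialis anterior (-0.26, 6.0e-05) and the gastrocnemius (-0.23, 3.9e-04), with -0.13 in the diaphragm (0.068). Ddit4 was lower in females in the tibialis anterior (-0.94, standard error 0.24, adjusted p 6.0e-04) and the gastrocnemius (-0.78, 7.5e-04), although the medians over all ages were close there, at 2.53 against 2.502 CPM and 2.35 against 2.85 CPM. Some male libraries had far higher levels than the rest, and they are given by library with the ages. Tsc22d3 was lower in the female soleus (-0.21, adjusted p 4.3e-03). Klf9 and Zbtb16 passed in 0 muscles with edgeR and with limma-voom, and 1 and 0 of their 4 tests each had an unadjusted p below 0.05 with edgeR. At single ages the sexes were fully apart in 3 of 192 cases. Over all genes the share was 2.90%, taken from CPM without TMM scaling. One case was Nr3c1 in the tibialis anterior at 12 months (179 to 237 CPM in females, 157 to 178 in males). The others were Klf15 in the gastrocnemius at 6 months (20.7 to 27.99, 15.5 to 19.8) and Zbtb16 in the gastrocnemius at 24 months (106 to 220, 69.8 to 103).

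Each older age was compared with 6 months in every muscle and sex, which gives 40 contrasts for a gene and 320 for the 8 genes. The members moved in few of them: 8 were higher and 13 lower (6.56%), against a background of 8.11% of all tests called, 4.33% higher and 3.78% lower. At 27 months 3 of 64 were higher and 6 lower (14.1%; background 15.3%, with 7.98% higher and 7.27% lower). At 24 months 3 were higher and 4 lower (10.9%; 12.0%), and at 21 months 2 higher and 3 lower (7.81%; 9.84%). At 12 and 18 months none of 64 passed with edgeR, limma-voom or DESeq2, where the backgrounds were 0.354% and 3.14% and 5 and 10 tests had an unadjusted p below 0.05 with edgeR. With a fold change above 1.5 added, 7 of 320 remained, against 2.49% over all genes, and at 27 months 2 of 64, against 4.15%.

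**Figure D2:**
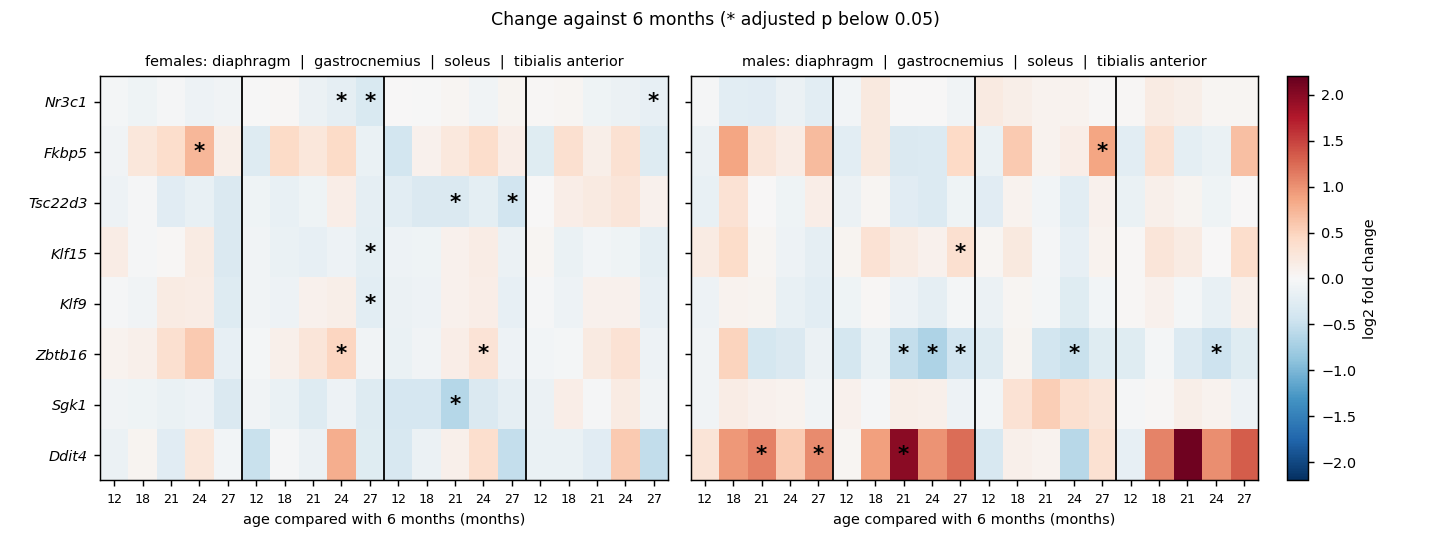
Heat map of the log2 fold change of each gene (from top to bottom) at each older age in months against 6 months, by muscle and sex (from left to right), with a star where the adjusted p was below 0.05. The 21 stars stand at 21, 24 and 27 months, with Zbtb16 in females and males in opposite colours at 24 months.

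Across the 6 ages, 21 of 64 tests found a difference at any age, against 18.8% of all tests. A trend on the logarithm of age passed in 8 of 64 (3 higher, 5 lower), against 19.8%. The study's rule for an age-related gene needs a fold above 1.5, a Bonferroni adjusted p and a preferred age curve. The curve must be preferred to a constant by the Bayesian information criterion. The rule was run here with edgeR in place of the study's limma, and with curves on the logarithm of age. In this form 0 of 64 met it. With the Benjamini-Hochberg adjustment in place of Bonferroni 1 of 64 did, against 3.88% over all genes: Zbtb16 in the male gastrocnemius, linear and falling. Curves on age in months also gave 1. The libraries of an older age and of 6 months did not overlap in 2 of 320 contrasts. Over all genes the share was 1.49%, taken from CPM without TMM scaling. The 2 were Nr3c1 in the male soleus at 12 months (142 to 164 CPM against 168 to 194) and Zbtb16 in the male gastrocnemius at 24 months.

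Nr3c1, the receptor itself, had log2 fold changes from -0.33 to 0.22 over the 40 contrasts. It fell in 3, all in females. In the female gastrocnemius its lowest, median and highest levels were 174, 212 and 251 CPM at 6 months, 159, 184 and 209 at 24 months and 121, 168 and 196 at 27 months. The groups overlapped, with 4 of the 10 libraries at 27 months above the lowest at 6 months. The log2 fold change was -0.20 at 24 months (standard error 0.068, adjusted p 0.026, background 19.1%) and -0.33 at 27 months (0.067, 1.6e-04, background 29.1%), and the latter passed when any single library of these 2 ages was left out. In the female tibialis anterior the levels were 171, 202 and 244 CPM at 6 months and 161, 177 and 204 at 27 months, a change of -0.18 (0.058, adjusted p 0.022, background 21.9%), which did not pass without 6-month replicate 1 (-0.15, 0.0748) or 6 (-0.14, 0.0859). The trend was -0.13 per doubling of age in the female gastrocnemius (adjusted p 1.0e-03) and -0.08 in the tibialis anterior (0.015).

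The fall in the female gastrocnemius at 27 months differed from the change in the soleus by 0.39 on the log2 scale (standard error 0.10, adjusted p 8.9e-03). This was 1 of 48 tests of a member's 27-month change in another muscle against the gastrocnemius that passed, against 2.21% of all tests. The diaphragm differed by 0.26 (0.10, adjusted p 0.16). Fibroblast markers moved in the same groups: 3 of 4 (Pdgfra, Col1a1, Dcn and Lum) were lower in the female gastrocnemius at 24 and at 27 months, and their summed level was 733 to 922 CPM at 6, 517 to 654 at 24 and 463 to 967 at 27 months. In the female tibialis anterior 1 of 4 was lower at 27 months. Over all muscles and sexes 15 of 32 tests of these markers were lower at 24 months and 14 of 32 at 27 months. With group means removed, Nr3c1 and these markers had r = -0.13 in the gastrocnemius and -0.10 in the tibialis anterior, over both sexes. The part of the fibroblast markers in the change of Nr3c1 was not tested.

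Fkbp5, whose product restrains the receptor, rose in 2 contrasts. In the female diaphragm its lowest, median and highest levels were 8.24, 13.8 and 18.4 CPM at 6 months and 14.5, 20.5 and 36.7 at 24 months, so that the groups overlapped only in the lower part of the older one. The log2 fold change was 0.73 (standard error 0.16, 1.66-fold, adjusted p 5.8e-03, background 3.32%), and 0.63 (0.022) without the highest library. The lowest library at 6 months was 1 of those whose tissue makeup stood apart, and the change was 0.66 (9.7e-03) without such libraries. In the male soleus the levels were 11.6, 15.99 and 23.7 CPM at 6 months and 13.6, 25.6 and 66.9 at 27 months, a change of 0.87 (0.23, 1.83-fold, adjusted p 0.026, background 2.83%). Replicate 8 at 27 months was the highest library, and without it the change was 0.66 (0.10). The call was also lost without 27-month replicate 2 (0.80, adjusted p 0.0558) or 6-month replicates 3, 4 or 7 (0.81 to 0.86, 0.0516 to 0.0629).

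The other male muscles had values of the same sign at 27 months that did not pass: 0.67 in the tibialis anterior (adjusted p 0.057), 0.69 in the diaphragm (0.12) and 0.44 in the gastrocnemius (0.20). Without replicate 8 at 27 months, the value in the gastrocnemius was 0.072. Without the libraries whose tissue makeup stood apart, the diaphragm passed (0.86, standard error 0.30, adjusted p 0.044). The male libraries numbered 8 at that age had high Fkbp5 in all 4 muscles, at 123 CPM in the gastrocnemius, 122 in the tibialis anterior, 66.9 in the soleus and 47.1 in the diaphragm, where the group medians were 33.0, 30.6, 25.6 and 22.0 CPM. In the male diaphragm at 18 months the lowest, median and highest levels were 15.5, 37.5 and 49.9 CPM against 12.9, 18.5 and 25.8 at 6 months (0.87, standard error 0.32, adjusted p 0.24). Over all ages Fkbp5 differed in the female diaphragm (adjusted p 5.8e-03), the soleus of females (7.1e-03) and males (0.011), the male tibialis anterior (0.013) and the male gastrocnemius (0.049).

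Tsc22d3, which encodes GILZ, fell in the female soleus. Its lowest, median and highest levels there were 31.4, 42.2 and 50.9 CPM at 6 months, 27.4, 35.0 and 42.3 at 21 months and 27.4, 32.1 and 35.2 at 27 months. At 27 months all 10 libraries were at or below 35.2 CPM, as was 1 of 8 at 6 months. The log2 fold changes were -0.31 at 21 months (standard error 0.11, adjusted p 0.035, background 22.5%) and -0.43 at 27 months (0.11, 2.7e-03, background 18.7%), the latter also called when any single library of the 2 ages was left out. The trend was -0.16 per doubling of age (adjusted p 2.8e-03). All 4 fibroblast markers were lower in this muscle at both ages, with a sum of 838 to 1520 CPM at 6 and 498 to 885 at 27 months. With group means removed, Tsc22d3 and these markers had r = 0.21 in the soleus, over both sexes. The part of these markers in the change was not tested.

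Klf15 and Klf9, the Kruppel-like factors, moved little. In the female gastrocnemius Klf15 was at 20.7, 24.6 and 27.99 CPM (lowest, median, highest) at 6 months and at 15.6, 22.3 and 23.0 at 27 months, a log2 fold change of -0.21 (standard error 0.082, adjusted p 0.045). In the male gastrocnemius it was at 15.5, 17.9 and 19.8 CPM at 6 months and 13.7, 22.8 and 37.0 at 27 months, a change of 0.35 (0.12, 0.030, background 23.1%). The 27-month males spread on both sides of the 6-month range, and 6 of 10 lay above it. The change differed between the sexes by -0.58 for females minus males (0.15, adjusted p 0.019), the only 1 of 32 such tests at 27 months that passed, against 1.00% of all tests. The female call was lost without 27-month replicates 0, 4 or 9 or 6-month replicates 1, 5, 6 or 7 (-0.17 to -0.21, adjusted p 0.0576 to 0.108), and the male call without 27-month replicates 2, 6 or 8 or 6-month replicate 5 (0.27 to 0.34, 0.0529 to 0.0802).

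Klf9, a repressor that the clock also drives, fell in 1 contrast, the female gastrocnemius at 27 months, from 120, 135 and 154 CPM to 65.9, 119 and 134. The log2 fold change was -0.23 (standard error 0.090, adjusted p 0.045). It was lost without 27-month replicates 0, 1, 4 or 7 or 6-month replicates 2, 4, 5, 6 or 7 (-0.16 to -0.24, 0.0522 to 0.106), and replicate 0 was the library at 65.9 CPM. Among females Klf9 differed over all ages in all 4 muscles: the diaphragm (adjusted p 0.017), the gastrocnemius (8.0e-03), the soleus (1.3e-03) and the tibialis anterior (0.016). In each of them the median was higher at an intermediate age than at 6 months and lowest at 27 months of the 3 ages named: 86.3, 94.5 and 70.5 CPM in the diaphragm at 6, 24 and 27 months, 135, 151 and 119 for gastrocnemius, 107, 118 and 95.3 for soleus, and 146, 155 and 127 in the tibialis anterior at 6, 21 and 27 months. Against 6 months, the 27-month changes outside the gastrocnemius were -0.28, -0.18 and -0.17 in the diaphragm, soleus and tibialis anterior (adjusted p 0.15, 0.066 and 0.095).

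Zbtb16, which encodes the transcription factor PLZF, had the most calls of the 8 genes, 2 higher and 5 lower of 40, and the sexes moved apart at 24 months. In the male gastrocnemius its lowest, median and highest levels were 106, 143 and 197 CPM at 6 months, 90.1, 101 and 121 at 21 months, 69.8, 91.3 and 103 at 24 months and 68.0, 89.2 and 175 at 27 months. The 24-month males all lay below the 6-month males. The log2 fold changes were -0.52 at 21 months (standard error 0.16, adjusted p 0.032, background 10.1%), -0.68 at 24 months (0.15, 1.4e-03, background 14.6%) and -0.42 at 27 months (0.15, 0.039), with a trend of -0.23 per doubling of age (5.8e-03). Male soleus at 24 months was at 46.2, 85.3 and 106 CPM against 84.2, 119 and 151 (-0.49, standard error 0.14, adjusted p 0.029, background 4.26%), and male tibialis anterior at 70.8, 105 and 128 against 105, 142 and 198 (-0.45, 0.15, 0.034, background 15.4%). In the male diaphragm the change was -0.31 (adjusted p 0.45).

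In the female gastrocnemius Zbtb16 was at 76.1, 101 and 151 CPM at 6 months and 106, 131 and 220 at 24 months, a log2 fold change of 0.47 (standard error 0.14, adjusted p 0.015). The female soleus rose from 73.7, 94.0 and 138 CPM to 81.9, 127 and 161 (0.30, 0.11, 0.046, background 23.2%). The female diaphragm and tibialis anterior had values of 0.57 (0.20, 0.097) and 0.32 (0.13, 0.09). At 27 months the female gastrocnemius was back at 62.7, 99.4 and 153 CPM. The 24-month groups of females overlapped the 6-month groups in each muscle.

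The difference of the changes between the sexes passed in 3 muscles at 24 months. For females minus males it was 1.15 on the log2 scale in the gastrocnemius (standard error 0.21, adjusted p 1.2e-04), 0.77 in the tibialis anterior (0.20, 0.011) and 0.78 in the soleus (0.18, 2.6e-03). These were the 3 of 32 tests that passed at 24 months, against 4.76% of all tests. Between these muscles the Zbtb16 levels of same-numbered libraries had r = 0.80 to 0.91. Tests of 1 gene in several muscles may therefore not be independent. At 21 months 2 of 32 passed, against 3.62%, Zbtb16 in the gastrocnemius (0.78, 0.22, 0.026) and Sgk1 in the soleus. At 12 and 18 months 0 passed with edgeR and with limma-voom, with 1 and 4 at an unadjusted p below 0.05 in edgeR, where 0.00633% and 0.0680% of all tests passed. Over all ages the course of a member differed between the sexes in 11 of 32 tests, against 5.91% of all tests. Zbtb16 was among them in every muscle: the diaphragm (adjusted p 0.020), gastrocnemius (2.7e-04), soleus (3.7e-04) and tibialis anterior (0.019). Klf9 passed in the gastrocnemius (0.035), soleus (0.037) and tibialis anterior (8.3e-03), Fkbp5 in the gastrocnemius (0.042) and tibialis anterior (0.024), Klf15 in the gastrocnemius (0.026) and Ddit4 in the soleus (0.048). With limma-voom 6 of the 11 passed, and Zbtb16 in the diaphragm (0.13), both of Fkbp5 (0.086 and 0.090), Klf15 (0.064) and Ddit4 (0.073) did not. Without the 53 libraries with liver markers above 100 CPM or an outlying total 7 passed, and Zbtb16 in the diaphragm (0.25), Fkbp5 (0.080) and Klf9 (0.081) in the gastrocnemius and Ddit4 (0.058) did not. Without the 7 libraries whose tissue makeup stood apart Ddit4 in the soleus did not pass (0.051).

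The calls of Zbtb16 depended on single libraries to differing degrees. Without the library farthest in the direction of the change, the male gastrocnemius at 24 months still passed (-0.64, adjusted p 4.2e-03), as did the female gastrocnemius (0.39, 0.046). The female soleus at 24 months (0.25, 0.115), the male gastrocnemius at 21 months (-0.49, 0.063), the male soleus at 24 months (-0.42, 0.063) and the male tibialis anterior at 24 months (-0.41, 0.083) did not. For the 3 male groups at 24 months, that library was replicate 8. The male gastrocnemius at 27 months was lost without 27-month replicates 0, 4, 5, 6, 7 or 9 or 6-month replicates 0, 2, 4, 5 or 6 (-0.32 to -0.42, 0.0517 to 0.128). In the male gastrocnemius at 24 months 2 of 4 fibroblast markers and 3 of 6 muscle markers were lower, and the fibroblast sum was 796 to 965 CPM at 6 and 527 to 797 at 24 months. With group means removed, Zbtb16 in the gastrocnemius of both sexes had r = -0.44 with fibroblast markers and 0.13 with muscle markers. The part of these markers in the change was not tested.

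**Figure D3:**
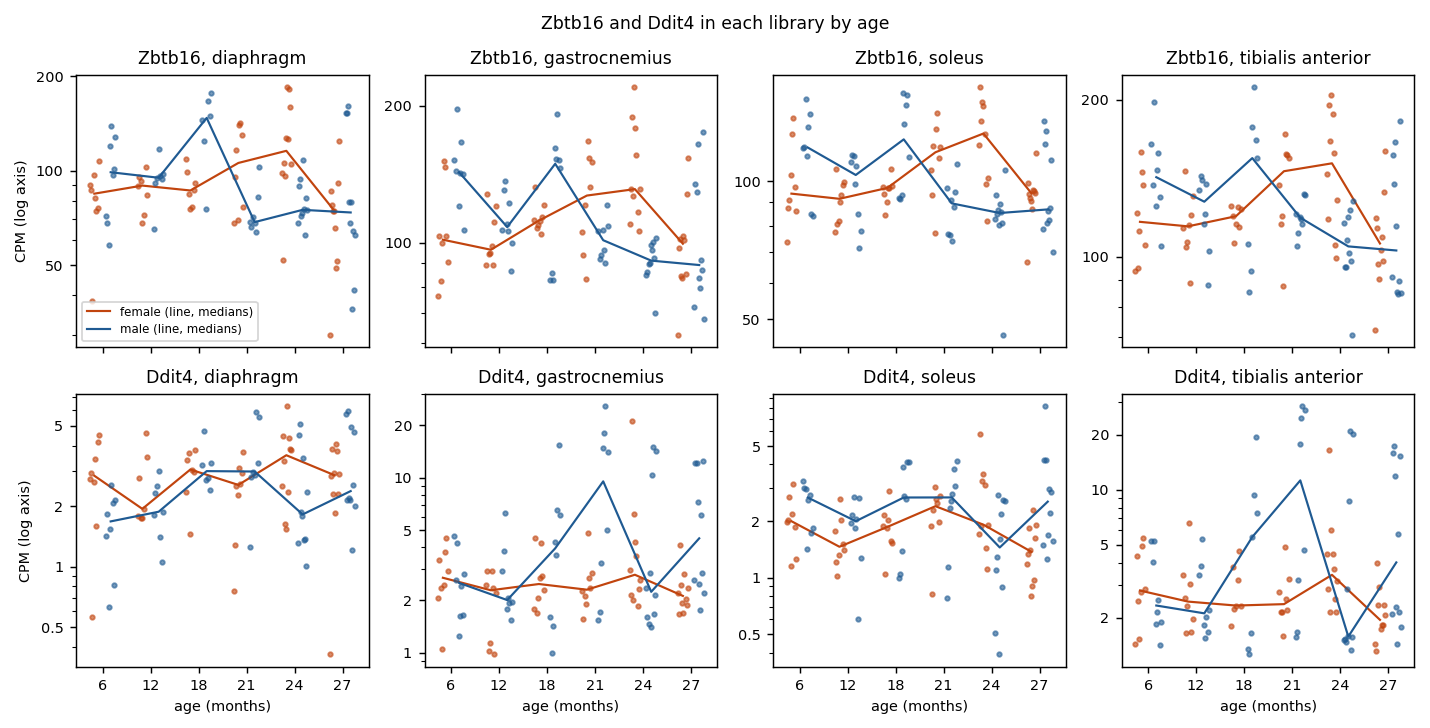
Level of Zbtb16 and Ddit4 in CPM (log axis) against age in months in each muscle, with females in orange and males in blue, points for libraries and lines through the medians. Zbtb16 medians of the sexes part at 24 months (131 against 91.3 CPM in the gastrocnemius), and Ddit4 in males of 21 months ranges from 1.55 to 25.5 CPM in the gastrocnemius.

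Sgk1, the ion transport kinase, fell in the female soleus at 21 months, from 44.9, 72.3 and 82.2 CPM at 6 months to 33.2, 43.2 and 54.6. The 2 lowest of the 8 libraries at 6 months fell within the range of the older group. The log2 fold change was -0.63 (standard error 0.14, adjusted p 1.2e-03), and -0.58 (3.4e-03) without the lowest library. Male soleus at that age was at 30.1, 99.2 and 129 CPM against 35.1, 60.7 and 89.2 at 6 months, a value of 0.54 (0.25, 0.39). The change in females minus that in males was -1.18 (0.29, adjusted p 9.7e-03).

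Ddit4, the mTOR inhibitor, had the widest spread of the 8 genes and rose in 3 contrasts, all in males. The highest library of a group exceeded the lowest by 4.07-fold in the median group and by up to 18.2-fold, where Nr3c1 differed by 1.33-fold in its median group. Its standard deviation within groups was 0.97 on the log2 scale in the gastrocnemius and 1.09 in the tibialis anterior, larger than that of 98.05% and 98.06% of all genes, with medians of 0.17 and 0.18 over all genes. In the male diaphragm the lowest, median and highest levels were 0.629, 1.68 and 2.56 CPM at 6 months, 1.252, 2.97 and 5.90 at 21 months and 1.21, 2.38 and 5.97 at 27 months. The log2 fold changes were 1.11 (standard error 0.35, adjusted p 0.034, background 10.5%) and 1.04 (0.32, 0.037, background 8.62%), and the former was 0.94 (0.097) without the highest library. The lowest libraries at 6 and at 27 months were among those whose tissue makeup stood apart. Without such libraries the changes were 1.03 (adjusted p 0.082) at 21 months, which no longer passed, and 0.99 (0.033) at 27 months.

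In the male gastrocnemius at 21 months, Ddit4 was at 1.55, 1.72, 3.24, 14.9, 18.1, 25.5, 5.06 and 14.0 CPM in replicates 0 to 7, against 1.249 to 4.65 CPM (median 2.51) at 6 months. In the tibialis anterior of the same sex and age it was at 1.57, 1.67, 3.22, 17.8, 24.7, 28.5, 4.69 and 27.1 CPM in replicates 0 to 7, against 1.43 to 5.27 CPM (median 2.33). The same replicate numbers were low, between and high in both muscles, and neither group was fully apart from 6 months. The log2 fold changes were 1.99 in the gastrocnemius (standard error 0.60, 3.97-fold, adjusted p 0.025), which was 1.66 (0.078) without the highest library, and 2.14 in the tibialis anterior (0.70, 0.051). The male soleus at 21 months was at 0.784, 2.67 and 4.18 CPM against 1.42, 2.67 and 3.27 (0.08, 0.37, 0.97), and the female gastrocnemius at 1.57, 2.29 and 4.85.

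High Ddit4 recurred in single libraries at other ages. At 24 months male replicates 5, 6 and 9 had at least 10.3 CPM in the gastrocnemius and had 8.72, 21.1 and 20.3 CPM in the tibialis anterior, where the other males of that age had at most 2.87. At 27 months male replicates 1, 2, 3 and 8 had 12.1, 12.1, 7.26 and 12.4 CPM in the gastrocnemius and 15.9, 17.5, 11.9 and 15.3 in the tibialis anterior. Among females, replicate 2 at 24 months stood out with 21.1 and 16.4 CPM. The trend with age in males was 0.46 per doubling in the diaphragm (adjusted p 0.024), 0.73 in the gastrocnemius (0.022) and 0.80 in the tibialis anterior (0.038).

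Immediate early genes, which cells induce within minutes of a stimulus or of handling, moved in the males at 21 months, as Ddit4 did in the diaphragm and gastrocnemius. In males at 21 months 7 of 13 were higher in diaphragm, 9 in gastrocnemius, 4 in tibialis anterior and 2 in soleus, with a median log2 fold change of 1.76 in the gastrocnemius. In females at 21 months 0, 0, 0 and 1 were higher and 0, 2, 2 and 4 lower in the same order. Of all genes, 10.5% passed in the male diaphragm and 10.1% in the male gastrocnemius at 21 months. At 27 months, when Ddit4 also passed in the male diaphragm, 0 of 13 immediate early genes were higher there. Over all muscles and sexes 3 were higher and 2 lower of 104 at that age (4.81%, beside 15.3% over all genes). Their summed level in males was 182 to 412 CPM at 6 and 183 to 1144 at 21 months in the gastrocnemius, 99.0 to 460 and 360 to 1015 in the diaphragm, and 225 to 580 and 220 to 815 in the tibialis anterior. Across libraries, with group means removed, Ddit4 and the immediate early sum had a Pearson r of 0.65 in the gastrocnemius and 0.52 in the diaphragm, as a description. For tibialis anterior, where Ddit4 had its largest log2 fold change, and for soleus this r was lower. The part of the immediate early genes in the Ddit4 changes was not tested.

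Within a group, the members tended to be high and low in the same libraries. Log2 CPM was centred on the mean of its group (muscle, sex and age), and each pair of the 8 genes was correlated over the 98 to 104 libraries of a muscle, with p values from 100000 permutations within groups, adjusted over the 28 pairs in each of the 4 muscles. In all, 94 passed: 25 of 28 in the diaphragm (20 positive), 25 in the gastrocnemius (24 positive), and, all positive, 21 for soleus and 23 for tibialis anterior. Without the libraries that stood apart, 22 of 28 passed in the diaphragm (20 positive). The median r was 0.395, 0.476, 0.465 and 0.444 in that order, against -0.002, -0.009, 0.007 and -0.004 over all pairs of the 14182 genes. In the same order 57.5, 37.3, 13.4 and 16.1% of all pairs of genes had an r of either sign at least as large as the smallest among the member pairs that passed, so that the count in the diaphragm and gastrocnemius is read against a high background. Fkbp5 and Sgk1 in the gastrocnemius were the exception to a positive sign there, with r = -0.21 (adjusted p 0.049) and rho = -0.10 (0.33), and r = -0.13 without the 2 farthest libraries.

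Klf15 and Klf9 varied together in every muscle. For diaphragm, gastrocnemius, soleus and tibialis anterior, Pearson's r was 0.55, 0.66, 0.76 and 0.81, Spearman's rho was 0.78, 0.59, 0.73 and 0.75, and r without the 2 libraries farthest from the median was 0.64, 0.64, 0.74 and 0.78. The permutation p of each was the smallest that 100000 permutations can give, 1e-05, adjusted to 2.2e-05. In the diaphragm r was 0.82 without the libraries that stood apart. Tsc22d3 and Ddit4 had r = 0.58, 0.71, 0.59 and 0.72 and rho = 0.59, 0.73, 0.62 and 0.75 in the same order. Tsc22d3 and Zbtb16 had r = 0.67, 0.74, 0.47 and 0.63, and Klf15 and Zbtb16 had r = 0.78, 0.56, 0.68 and 0.49.

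The receptor gene had correlations of both signs. In the diaphragm Nr3c1 correlated positively with Sgk1 (r = 0.29, rho = 0.27, adjusted p 5.0e-03, and r = 0.29, 0.012 without the libraries whose tissue makeup stood apart). It correlated negatively with Ddit4 (r = -0.62, rho = -0.50), Zbtb16 (r = -0.36), Fkbp5 (r = -0.35) and Tsc22d3 (r = -0.31), and with Klf15 at r = -0.53 but rho = -0.20 (adjusted p 0.085). The last of these and others rested on the libraries whose tissue makeup stood apart: without them (92 libraries) r was 0.16 with Klf15 (adjusted p 0.32), -0.01 with Zbtb16 (0.96) and -0.19 with Tsc22d3 (0.26), while Ddit4 (r = -0.37, rho = -0.38, adjusted p 1.0e-03) and Fkbp5 (r = -0.50, rho = -0.48, 7.5e-05) passed. In both fast limb muscles, the gastrocnemius and tibialis anterior, it correlated positively with Klf9 (0.45 and 0.36), Klf15 (0.29 and 0.44), Tsc22d3 (0.36 and 0.36) and Ddit4 (0.30 and 0.38). In the soleus none of its 7 pairs passed (-0.18 to 0.19). With all libraries, the centred level of Nr3c1 in the diaphragm also had r = -0.67 with the summed immediate early genes, -0.60 with blood markers and -0.49 with muscle markers, while Klf15 had r = 0.79 and Zbtb16 r = 0.64 with muscle markers. These diaphragm values include the 5 libraries set apart by low muscle markers, and were not taken again without them. Klf9 had r = -0.52 in the gastrocnemius and -0.54 in the tibialis anterior with fibroblast markers. The part of these cell types in the member correlations was not tested.

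**Figure D4:**
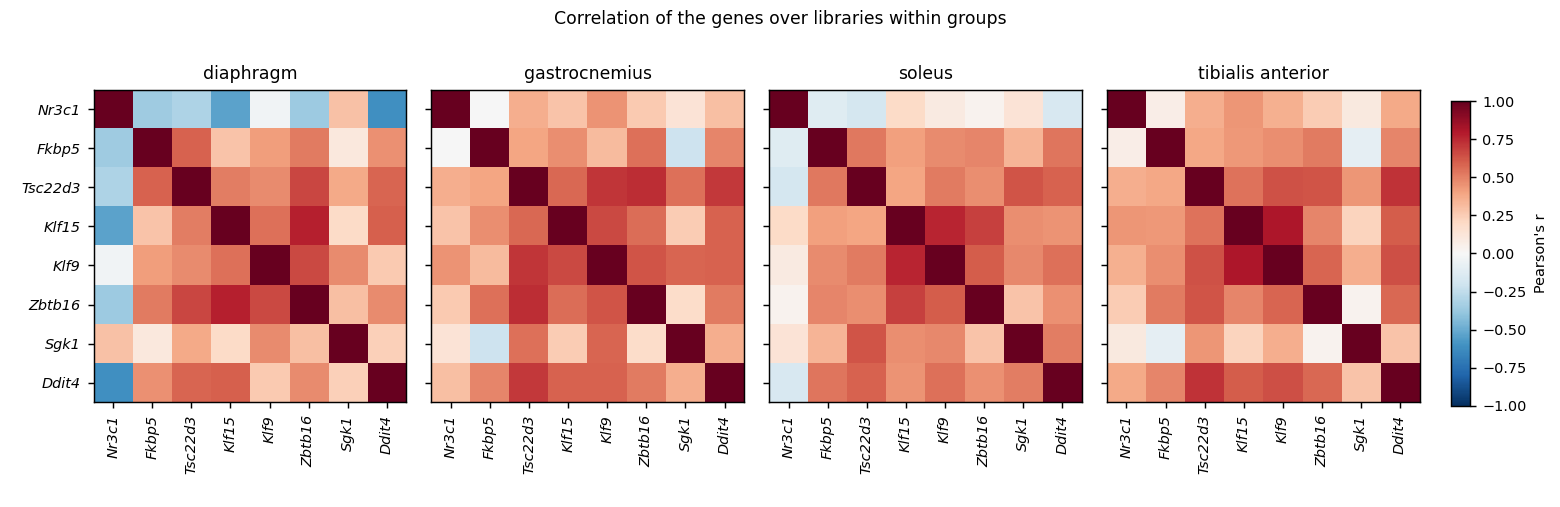
Pearson's r between the 8 genes over the libraries of each muscle, from log2 CPM centred on the mean of each muscle, sex and age group. Most squares are positive, and Nr3c1 is negative with 5 of the other genes in the diaphragm at an adjusted p below 0.05, or with 2 without the libraries that stood apart.

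The levels also ran in parallel between muscles. Libraries of 2 muscles were matched by replicate number within a sex and age, which the labels do not state to mark a mouse, and 8 genes in 6 pairs of muscles gave 48 correlations, of which 23 passed. An r at least as high as the lowest that passed was found in 17.8% of all genes between the gastrocnemius and the tibialis anterior (8 of 8 members), 27.2% between the soleus and the tibialis anterior (8 of 8) and 2.34% between the gastrocnemius and the soleus (7 of 8). Between the gastrocnemius and the tibialis anterior (88 pairs), r was 0.95 for Fkbp5, 0.94 for Ddit4, 0.91 for Zbtb16, 0.85 for Klf9, 0.83 for Tsc22d3, 0.76 for Klf15, 0.70 for Sgk1 and 0.50 for Nr3c1. Spearman's rho was 0.89, 0.93, 0.90, 0.84, 0.81, 0.75, 0.67 and 0.50, and r without the 2 farthest was 0.93, 0.94, 0.90, 0.85, 0.80, 0.74, 0.69 and 0.61 in the same order of genes. The adjusted permutation p was 2.3e-05 for the first 7 and 8.7e-05 for Nr3c1. Among 14182 genes ranked by this r, Fkbp5 stood at 6, Ddit4 at 8, Zbtb16 at 25, Klf9 at 60, Tsc22d3 at 103, Klf15 at 324, Sgk1 at 547 and Nr3c1 at 2518.

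Between the gastrocnemius and the soleus (94 pairs) r was 0.82 for Zbtb16, 0.81 for Klf9, 0.78 for Fkbp5, 0.69 for Ddit4, 0.67 for both Tsc22d3 and Klf15 and 0.65 for Sgk1, while Nr3c1 had 0.19 (adjusted p 0.15). Between the soleus and the tibialis anterior (78 pairs) it ran from 0.30 for Nr3c1 (adjusted p 0.041) to 0.80 for Zbtb16. The diaphragm passed with 0 of 24 (-0.19 to 0.35), of which 1 had an unadjusted p below 0.05. That was Fkbp5 between the diaphragm and the soleus, with r = 0.35 (adjusted p 0.087) and rho = 0.37 (0.028). With means removed within runs of the sample numbers, Fkbp5 passed between the diaphragm and each other muscle, at r = 0.52 with the gastrocnemius (63 pairs, adjusted p 9.0e-04), 0.56 with the soleus (53 pairs, 5.5e-03) and 0.51 with the tibialis anterior (69 pairs, 1.1e-03), and Nr3c1 between the soleus and the tibialis anterior did not (0.21, 0.13).

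As a description over lists, the median r between the gastrocnemius and the tibialis anterior was 0.84 for the 8 members, 0.79 for 28 other glucocorticoid-induced genes, 0.72 for 17 clock genes, 0.61 for 13 immediate early genes, 0.47 for 13 genes of the receptor's chaperones, cofactors and hormone activation, 0.11 for muscle markers and 0.28 over all genes. Between the gastrocnemius and the soleus the medians were 0.68, 0.61, 0.59, 0.70, 0.35, 0.12 and 0.16 in that order, so that immediate early genes were the highest there. A gastrocnemius library's best match over all genes among the tibialis anterior libraries of its group had the same number in 44 of 88 cases, while diaphragm libraries matched their own number in 10 of 64, 4 of 54 and 10 of 71 cases.

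**Figure D5:**
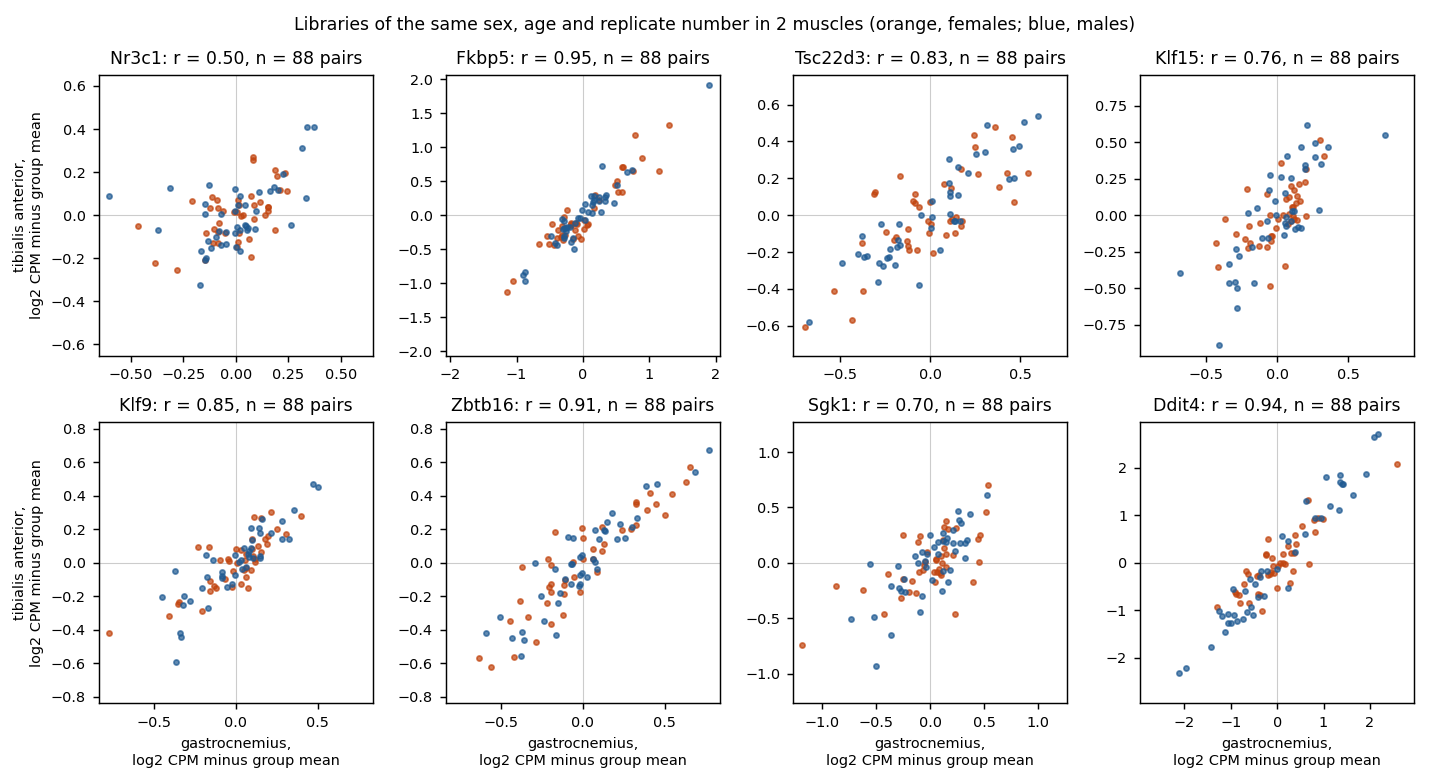
Log2 CPM minus the group mean in the tibialis anterior against that in the gastrocnemius, for the 88 pairs of libraries with the same sex, age and replicate number, in a panel for each gene. The points lie along a line for Fkbp5 (r = 0.95) and Ddit4 (r = 0.94) and form a loose cloud for Nr3c1 (r = 0.50).

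The genes most like each member were ranked by the mean over the 4 muscles of Pearson's r between centred log2 CPM values, over 98 to 104 libraries in each. Klf15 was closest to Pim3 (0.72), Klf9 (0.70) and Wbp1l (0.69), and Klf9 to Usp2, a clock-controlled protease (0.70), Klf15 (0.70) and Pde4d (0.68). Ddit4 was closest to Cebpd (0.76), Map3k6 (0.75) and Gadd45g (0.70), and Tsc22d3 to Tob2 (0.76), Arrdc2 (0.74) and Map3k6 (0.71). Zbtb16 was closest to Mast2 (0.75), Plin4 (0.74) and Timp4 (0.72), and Fkbp5 to Glul, which makes glutamine (0.63), Foxo1, a transcription factor of muscle atrophy (0.62), and Lpin1 (0.59). Sgk1 had lower values, with Errfi1 (0.53), Ndel1 (0.50) and Tsc22d3 (0.50), and Nr3c1 was closest to Smc6 (0.61), Oxr1 (0.60) and Rc3h2 (0.59). All libraries entered these means, among them the diaphragm libraries whose tissue makeup stood apart. Klf15 had r = 0.91 with both Pim3 and Wbp1l in the diaphragm, but 0.60 and 0.51 in the soleus. Nr3c1 and Smc6 had r = 0.86 in the diaphragm and 0.41 in the tibialis anterior. Klf15 and Klf9 went the other way, with 0.55 and 0.81 in these 2 muscles.

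The wider pathway was read from lists of other genes. Of 28 other genes known to be induced by glucocorticoids, 64 tests were higher and 29 lower of 1120 over the 5 older ages (8.30%), beside 8.11% over all genes. At 27 months 24 were higher and 11 lower of 224 (15.6%, beside 15.3%). Cdkn1a, a cell cycle inhibitor that p53 also induces, rose in 5 of 8 muscle and sex combinations by 0.64 to 1.88 on the log2 scale, with the largest in the male gastrocnemius (1.88, standard error 0.24, adjusted p 4.8e-08). The metallothionein Mt2 rose in the female gastrocnemius (0.89), the female tibialis anterior (1.06) and the male diaphragm (3.40). The male diaphragm value includes libraries whose tissue makeup stood apart: replicate 2 at 6 months, and replicate 6 at 27 months with liver markers at 10941 CPM. The atrophy ligase gene Trim63 rose in the male tibialis anterior (0.99) and fell in the female soleus (-0.40). The growth inhibitor gene Mstn fell in the female gastrocnemius (-0.44) and tibialis anterior (-0.35). None of the 28 passed in the female diaphragm or the male soleus at 27 months with edgeR, where 5 and 8 had an unadjusted p below 0.05.

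Of 13 genes for chaperones and cofactors of the receptor and for hormone activation, 31 tests were higher and 25 lower of 520 over the 5 ages (10.8%). At 27 months 13 were higher and 11 lower of 104 (23.1%). Over all genes 8.11% of tests passed over the 5 ages and 15.3% at 27 months. At 27 months 29.1% of all genes passed in the female gastrocnemius, 23.1% in the male one and 21.9% in the female tibialis anterior. Fkbp4, a co-chaperone that promotes the receptor's entry into the nucleus, fell in the gastrocnemius and tibialis anterior of both sexes (-0.18 to -0.23), and the chaperone gene Hsp90ab1 rose in 5 of 8 combinations (0.10 to 0.34). Hsd11b1, whose enzyme regenerates active corticosterone, rose in the female tibialis anterior (0.39) and fell in the male one (-0.29). The coactivator gene Ncoa1 fell in the gastrocnemius of females (-0.15) and males (-0.22).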

How the data were processed

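RNA of whole muscles was made into strand-specific total RNA libraries and read in pairs. The authors deposited raw read counts per gene, 1 table for each of 407 libraries, made in ArrayStudio on mm10 with their own RefSeq-based gene models (software version not given in the sources used here). For a repeated gene symbol the line with most counts was kept, and 633 of 25091 lines, with 0.0335% of the counts, were dropped. Library totals ranged from 38583802 to 300089909 counts, and the lowest count of a member in a library was 24.

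Each muscle and sex was fitted with all 6 ages in edgeR 4.0.16 (R 4.3.3), after filterByExpr and TMM scaling, by the quasi-likelihood test with Benjamini-Hochberg adjustment over all genes tested and a threshold of 0.05. Shares of all tests are over the genes tested in each fit. Shares for groups that did not overlap, for correlations and for standard deviations are over the 14182 genes tested in every muscle and sex. Sexes and muscles, and their interactions with age, were tested in joint fits. Fits across muscles took libraries as independent, although some may come from the same mouse. CPM of a gene was its count per 1000000 counts of the genes that passed the filter, with each library scaled by its TMM factor. Liver and muscle marker sums that set libraries apart used the unscaled library total. So did the shares of all genes whose groups did not overlap. Correlations used log2 CPM (prior count 0.5) with group means removed and 100000 permutations within groups (Python 3.11.15, numpy 2.4.6). On counts simulated for the male gastrocnemius at 27 against 6 months (15125 genes), folds of 1.25, 1.5, 2 and 3 were recovered in 50, 78, 84 and 89.8% of changed genes, with 8 false calls.

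Alternatives were limma-voom (limma 3.58.1), DESeq2 1.42.0, RLE scaling, no filter, blocks of replicate number or of runs of the sample numbers in the labels, omitted libraries, a Bonferroni adjustment and a fold limit of 1.5. The members, lists and tests were chosen with earlier results of these data known. Named genes are the 8 members, up to 4 genes of a list with the smallest adjusted p at 27 months in a muscle and sex, and the 3 genes most like each member. The sex differences at 12 to 24 months and over all ages, the omission of the 7 libraries whose tissue makeup stood apart, the omission of the farthest library and the means within runs of sample numbers were added after seeing the data. The labels number the replicates of a group but do not name the mice, so p values measure the spread between these libraries.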

Additional observations from a re-analysis of the deposited data

Results flagged for a closer look

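In 44 of 384 groups of a gene, muscle, sex and age, the highest or lowest library lay far from the others by Dixon's criterion, which chance alone meets in about 1 of 20 groups. Several came from libraries that shared a replicate number. Female replicate 0 at 27 months was lowest for Nr3c1 in the gastrocnemius (121 CPM, others 155 to 196) and soleus (132 CPM), for Klf9 in the gastrocnemius (65.9 CPM) and tibialis anterior (93.9 CPM), for Sgk1 in the gastrocnemius (58.4 CPM, others 123 to 181) and tibialis anterior (113 CPM), and for Klf15 (11.6 CPM) and Zbtb16 (66.6 CPM) in the soleus. Male replicate 8 at 24 months was lowest for Zbtb16 in the gastrocnemius (69.8 CPM), soleus (46.2 CPM, others 80.3 to 106) and tibialis anterior (70.8 CPM) and for Klf15 in the soleus (10.2 CPM). Male replicate 8 at 27 months was highest for Fkbp5 in the gastrocnemius (123 CPM, others 17.7 to 46.9) and lowest for Sgk1 in the diaphragm (55.8 CPM) and tibialis anterior (114 CPM). Female replicate 2 at 24 months was highest for Ddit4 in the gastrocnemius (21.1 CPM, others 1.86 to 6.18) and tibialis anterior (16.4 CPM). Female replicate 1 at 12 months was highest for Fkbp5 in the gastrocnemius (30.7 CPM) and tibialis anterior (40.1 CPM, others 14.5 to 16.4). Male replicate 7 at 12 months was lowest for Nr3c1 (102 CPM) and Klf9 (98.4 CPM) in the gastrocnemius.

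Diaphragm libraries whose tissue makeup stood apart gave 9 of these values. Klf15 was at 5.06 CPM in female replicate 0 at 21 months, 1.87 CPM in female replicate 0 at 27 months, 4.53 CPM in female replicate 2 at 6 months and 4.85 CPM in male replicate 2 at 6 months. Nr3c1 was highest in female replicate 0 at 27 months (258 CPM) and male replicate 2 at 6 months (301 CPM, others 151 to 170), and lowest in male replicate 3 at 21 months (134 CPM). Zbtb16 was at 38.4 CPM in female replicate 2 at 6 months, and Ddit4 at 0.368 CPM in female replicate 0 at 27 months.

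The remaining values stood in single libraries. For Fkbp5 they were 14.1 CPM in the female tibialis anterior at 18 months and 7.76 CPM in the male soleus at 12 months. For Tsc22d3 they were 193 CPM in the female gastrocnemius at 6 months, 23.3 CPM in the female soleus at 18 months, 156 CPM in the female tibialis anterior at 12 months, 38.7 CPM in the male diaphragm at 18 months and 91.4 CPM in the male soleus at 18 months (others 30.2 to 50.2). For Klf9 the value was 96.1 CPM in the female gastrocnemius at 12 months. For Zbtb16 they were 52.0 CPM in the female diaphragm at 24 months and 65.2 CPM in the male diaphragm at 12 months. For Sgk1 they were 93.7 CPM in the female gastrocnemius at 18 months, 88.3 CPM there at 21 months and 154 CPM in the male tibialis anterior at 6 months, and for Ddit4 0.821 CPM in the female soleus at 21 months.

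Changes that differed between groups by the interaction test, in log2 units for females minus males, were those of Zbtb16 in the gastrocnemius at 21 months (0.78) and 24 months (1.15), the soleus at 24 months (0.78) and the tibialis anterior at 24 months (0.77), of Klf15 in the gastrocnemius at 27 months (-0.58) and of Sgk1 in the soleus at 21 months (-1.18). In females the change of Nr3c1 at 27 months in the soleus minus that in the gastrocnemius was 0.39.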

How the results depend on the processing

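Most counts of members kept within 1.5 times their value. Against 6 months the 21 calls became 15 to 24 under other tools, scaling, filter, blocks and omitted libraries, 7 with a fold above 1.5 and 0 with a Bonferroni adjustment; at 27 months the 9 calls became 6 to 10, 2 and 0, and 7 to 10 when single libraries of either age were left out in 5 of the 6 muscle and sex combinations that held them (not run for the male diaphragm). With Bonferroni the counts were 0 for any age (21), the trend (8), the sex difference at 27 months (1), the muscle difference at 27 months (1) and the study's rule (1), 3 for the sexes (12), 47 for muscles (73) and 1 for sex by age over all ages (11). That last count was 6 with limma-voom and 7 without the 53 libraries that stood apart (liver markers above 100 CPM or an outlying total). With a replicate block the trend passed in 4 and calls against 6 months in 15; replicate numbers did not pair ages (median r of same-numbered libraries -0.02 to 0.065). The study's rule gave 0 at stricter margins of the information criterion. With muscles matched crosswise to other numbers 0 of 48 correlations passed, against 23. Muscle differences in males that changed sign were all small. For Nr3c1 they were the diaphragm against the gastrocnemius (0.039 without libraries that stood apart, 0.024 without the 7 with another tissue makeup, 0.067 without the filter, 0.088 with RLE scaling), the soleus against the diaphragm (-0.026, -0.002107, -0.046 and -0.057), the tibialis anterior against the diaphragm (-0.027, -0.031 without the filter, -0.069 with RLE) and against the soleus (-0.000954, -0.012 with RLE). For Zbtb16 the soleus against the diaphragm was -0.071 with a block of sample numbers. Of 121 single values, 6 to 22 kept their sign and fell short of the threshold under each setting but DESeq2, where 0 of 29 did. A further 0 to 4 under each setting changed sign, as given above. The cause of these shifts was not tested.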

Other observations

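Clock genes, which set daily rhythms and which glucocorticoids and feeding can shift, moved in both directions with age. Over the 5 older ages 53 tests of 17 genes were higher and 58 lower of 680 (16.3%, beside 8.11% over all genes). At 21 months 21 were higher and 21 lower of 136 (30.9%, beside 9.84% over all genes), and at 24 months 18 and 21 (28.7%, beside 12.0%). At 27 months 10 were higher and 12 lower of 136 (16.2%, beside 15.3% over all genes). Cry2, a repressor of the clock, rose in 6 of 8 muscle and sex combinations by 0.25 to 0.65 on the log2 scale. Nr1d1, which encodes the repressor REV-ERB alpha, fell in 4: the female tibialis anterior (-0.29) and the male gastrocnemius (-0.49), soleus (-0.58) and tibialis anterior (-0.44). Bhlhe41 rose in the female diaphragm (0.50) and soleus (0.52) and fell in the male gastrocnemius (-0.38), and Nfil3 (-0.64) and Bhlhe40 (-0.30) fell in the female gastrocnemius. Age and the day and hour of collection cannot be told apart in these values.

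Markers of other cells were counted over the same 5 ages, where 8.11% of all tests passed, 4.33% higher and 3.78% lower. Of the tests of fibroblast markers 0 were higher and 55 lower of 160 (34.4%), of endothelial markers 1 and 21 of 160 (13.8%), of lymphocyte markers 23 and 0 of 210, of macrophage markers 16 and 5 of 200 (10.5%), of adipocyte markers 14 and 0 of 200, of muscle markers 10 and 22 of 240 (13.3%), of blood markers 2 and 2 of 185 (2.16%), and of liver markers 12 and 0 of 200 (6.00%). Immediate early genes had 34 higher and 22 lower of 520 (10.8%). No listed marker was at 0 in all libraries of a group.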
